A study of Mus musculus with 16 samples.

Results

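A microRNA (miRNA) hairpin gives 2 strands. One of them, the guide, usually accumulates, and the other, the passenger or star strand, carried an asterisk in the older miRNA nomenclature. This account covers the 101 mouse star forms measured on both array designs of the study, out of 604 miRNAs present on both. They were chosen by name alone, as the non-control probes whose name starts with mmu- and ends in an asterisk. Of 114 such names, 13 with probes on chromosome 12 between 110.5 and 111.5 Mb (mm9) were left out.

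The study profiled 8 myeloid and dendritic cell (DC) populations sorted directly from female C57Bl/6 mice, 6 weeks old, with 2 arrays per population. The labels give no treatment or genetic modification. The 3 bone marrow progenitor populations, each from pools of 15 mice, were CD135+ and negative for a lineage panel: MP (CD117+, CD115-), MDP (CD117+, CD115+) and CDP (CD117 low, CD115+). Gr1+ monocytes (CD11b+, CD115+) and PDC (B220+, SiglecH+, CD317+, with intermediate CD11c) came from the marrow of 5 mice per pool, and CD4+ DC, CD8+ DC and CD4-CD8- DC, all CD11c+, from the spleens of 8. The labels do not spell out MP, MDP, CDP or PDC. Each replicate is a separate pool, so the p-values cover the spread between 2 pools. All first replicates were hybridised to the 8 arrays of design 1 and all second replicates to the 8 of design 2, each on 1 slide, so replicate number, design and slide are the same split.

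Both strands of a hairpin come from one transcript, cut by Drosha in the nucleus and Dicer in the cytoplasm. Argonaute then keeps one strand, chosen largely by the stability of the duplex ends and by its first base, and the other is usually degraded. Star strands are therefore mostly rare, yet some are loaded and repress targets of their own, and which strand prevails can differ between tissues.

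The sequences below are those of the star forms on which the results turn, written 5′ to 3′ with the seed, bases 2 to 8, in capitals. The guide is shown only where both strands were tested below and RefSeq (GRCm38.p6) held 1 sequence for it. RefSeq gave 1 mature sequence for 88 of the 101 star forms, and names them by arm (-5p or -3p) instead of by an asterisk. The miR-17 cluster of chromosome 14 is shown first, because 3 of its star forms were above background on some array and their seeds all start with CUGC. That start is not particular to the cluster, since the seed of miR-191*, on chromosome 9, has it too.
miR-17*: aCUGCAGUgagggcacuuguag
miR-17: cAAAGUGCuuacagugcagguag
miR-18a*: aCUGCCCUaagugcuccuucug
miR-18a: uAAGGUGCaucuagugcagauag
miR-20a*: aCUGCAUUacgagcacuuaaag
miR-140*: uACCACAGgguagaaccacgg
miR-181a-1*: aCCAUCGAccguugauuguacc
miR-181a: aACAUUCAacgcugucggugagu
miR-130b*: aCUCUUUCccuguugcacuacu
miR-130b: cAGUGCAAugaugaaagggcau
miR-138*: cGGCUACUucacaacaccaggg
miR-138: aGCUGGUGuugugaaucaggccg
miR-29b*: gCUGGUUUcauauggugguuua
miR-29b: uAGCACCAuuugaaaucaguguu
miR-135a*: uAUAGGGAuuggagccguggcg
let-7b*: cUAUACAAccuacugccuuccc
let-7f*: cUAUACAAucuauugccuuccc

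The star and guide of a hairpin have different seeds in each pair shown. Among the star forms above background on any array, let-7b* and let-7f* were the only 2 with a common seed. Over the 88 matched star forms, 57 were the 3p arm and 31 the 5p arm, and 14 began with U, against 49 of the 82 guides with a RefSeq sequence. Of the 16 star forms analysed further below, 13 were 3p arms.

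Most star forms were not above background in any of these cells. A star form was called above background on an array when the scanner software had marked a share of 0.5 or more of the spots of 1 of its probes as well above background. By this rule 78 of the 101 were above background on no array, 23 on at least 1 array (22.8%, against 34.9% of all 604 miRNAs) and 16 on both arrays of at least 1 population (15.8%, against 29% of all miRNAs and 31.6% of the 503 others). miR-140* and miR-17* were above background on all 16 arrays, which is 2 of 101 star forms against 14.6% of all miRNAs. These 16 star forms were tested, and since a miRNA could enter through the one population where it was high, their number of calls is a description and not support for a rule about star forms.

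The other 7 never reached both arrays of 1 population. let-7b* was above background on 7 arrays and let-7f* on 6, all of design 2, and miR-150* on 5, all of design 1. miR-20a* was above background on 2 arrays, 1 each of MP and MDP. miR-22* was above background on 1 CD8+ DC array, and miR-378* and miR-7a* on 1 PDC array each.

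CD8+ DC had the most star forms above background on both arrays, 11, followed by MP with 9, CDP with 8, CD4+ DC with 7, MDP, PDC and CD4-CD8- DC with 6 each and Gr1+ monocytes with 5. CD8+ DC also had the most miRNAs of any kind on both arrays, 147 of 604, or 24.3%, against 17.7% in MDP, the lowest. The share of all miRNAs was 20.9% in MP, 19.7% in CDP, 21.4% in CD4+ DC, 21% in PDC, 20% in CD4-CD8- DC and 19.4% in Gr1+ monocytes. Between 116 and 174 miRNAs were above background on an array, and both CD8+ DC arrays had the highest number of their design, 150 and 174. Summed over the 101 star forms, 104 detections fell on design 2 and 68 on design 1.

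**Figure D1:**
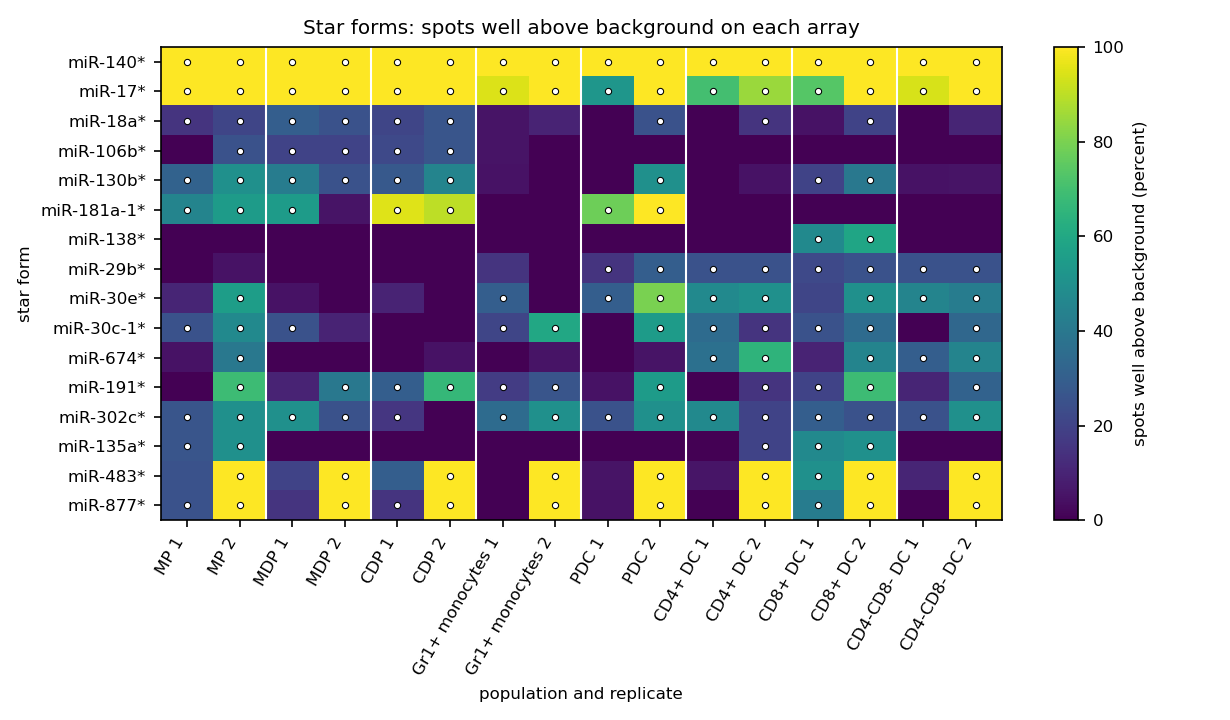
Rows are the 16 star forms above background on both arrays of at least 1 population, columns the 16 arrays by population and replicate (replicate 1 on design 1, replicate 2 on design 2), and colour the percent of a miRNA's spots, over all its probes, that were well above background. White dots mark arrays where the star form was called above background, and miR-140* and miR-17* carry a dot on all 16 arrays while miR-138* carries one on the 2 CD8+ DC arrays.

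Detection of a star form and of its guide did not go together 1 to 1. Both strands were tested for 11 star forms, the guide alone for 46, the star alone for 5 and neither for 36, and for 3 no guide was matched. Of 43 star forms whose guide was above background on all 16 arrays, 8 were among the tested 16. The 5 star forms whose guide was not tested were miR-135a*, miR-302c*, miR-674*, miR-191* and miR-877*. Their guides were above background on 0, 0, 0, 3 and 1 arrays. The median GC content of the probe sites was 61.3% for these 5 and 54.3% for the 11 with a tested guide, and any part of probe chemistry in this was not tested.

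In the tests below, a log2 value is the background-subtracted intensity relative to the array's 75th percentile of the 88 miRNAs above background on all arrays. Values below a floor of -5.30 (design 1) or -5.78 (design 2) were raised to it, so folds of dim star forms are compressed. Arrays at the floor share the same value within a design and hide the spread between pools. Standard errors and p-values of such star forms therefore depend on the floor too. Tests are limma's moderated tests over 16 arrays with the array design as a block, and p-values are adjusted over all 175 tested miRNAs. Levels of different probes are not compared. In bulk samples a change in the share of cells that make a miRNA and a change in its amount per cell cannot be told apart.

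Over the 8 populations, 5 of the 16 star forms differed by limma's F test (31.2%, against 73.1% of all 175 miRNAs). They were miR-181a-1* (adjusted p = 0.00015), miR-17* (0.000311), miR-138* (0.00357), miR-140* (0.00482) and miR-135a* (0.0245). Without the block the calls on miR-138* and miR-135a* ended, and that on miR-135a* also without PDC replicate 2. miR-138* had entered the test set through CD8+ DC alone, so it had to differ there. miR-135a* had entered through MP and CD8+ DC, and miR-181a-1* through MP, CDP and PDC, populations where they were high. The p-values of these star forms are therefore a description and no support. With normexp background correction none of the 5 was called, and none had an unadjusted p under 0.05, while 53 of all 175 miRNAs were called. That correction adds an offset of 50 intensity units, above the signals of dim star forms, such as 13.8 and 15.5 for miR-138* in CD8+ DC. The signals of miR-140* ran from 69.3 to 303 and those of miR-17* from 37.9 to 116, and their calls were lost as well. The part of the offset in the lost calls was not tested. A lost call alone does not show that a difference is absent.

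miR-17*, the 3p strand of miR-17 in the proliferation-linked miR-17 cluster, was highest in the early progenitors and lower in every differentiated population. Its probes lie on chr14:115442951-115442964, plus strand, of mm9. Its log2 values in replicates 1 and 2 were -2.46 and -2.20 in MP, -2.50 and -2.36 in MDP, and -2.72 and -2.74 in CDP. They were -3.08 and -3.33 in Gr1+ monocytes, -3.59 and -3.23 in PDC, -3.61 and -3.58 in CD4+ DC, -2.84 and -2.92 in CD8+ DC, and -3.08 and -3.22 in CD4-CD8- DC. All 6 progenitor arrays lay above all 10 differentiated arrays, with CD8+ DC nearest to CDP.

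miR-140*, the 3p strand of a hairpin known for its role in cartilage, ran the other way. Its log2 values were -2.14 and -1.98 in MP, -2.61 and -2.27 in MDP, and -2.32 and -2.30 in CDP. They were -1.81 and -1.97 in Gr1+ monocytes, -1.90 and -1.53 in PDC, -1.71 and -1.58 in CD4+ DC, -1.82 and -1.95 in CD8+ DC, and -1.79 and -1.49 in CD4-CD8- DC. All 6 progenitor arrays lay below all 10 differentiated ones, MDP and CDP lowest, with MP replicate 2 all but level with Gr1+ monocytes replicate 2.

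miR-181a-1*, from 1 of the 2 loci that give the lymphoid regulator miR-181a, was present in progenitors and PDC and not well above background in Gr1+ monocytes or any spleen DC. Its scaled signals, that is its background-subtracted intensities as a percent of the array's 75th percentile, with no floor, were 3.84 and 2.70 in MP, 3.82 and 3.58 in MDP, 6.21 and 3.84 in CDP, and 5.15 and 5.04 in PDC. They were 0.821 and 0.447 in Gr1+ monocytes, 0.800 and 0.816 in CD4+ DC, 0.870 and 0.639 in CD8+ DC, and 1.32 and 0.772 in CD4-CD8- DC. The first 4 populations did not overlap the other 4, although MDP replicate 2 was itself not above background. miR-150 and miR-181a, the lymphoid and PDC markers, had a summed level of 1.99 to 2.46 times the array's 75th percentile in PDC, against 0.23 to 1.40 elsewhere. miR-150 alone did not set PDC apart, with a mean log2 of -0.83 there, -0.73 in CD4-CD8- DC and -1.13 in CD8+ DC. The other marker, miR-181a, is the guide of this star form.

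**Figure D2:**
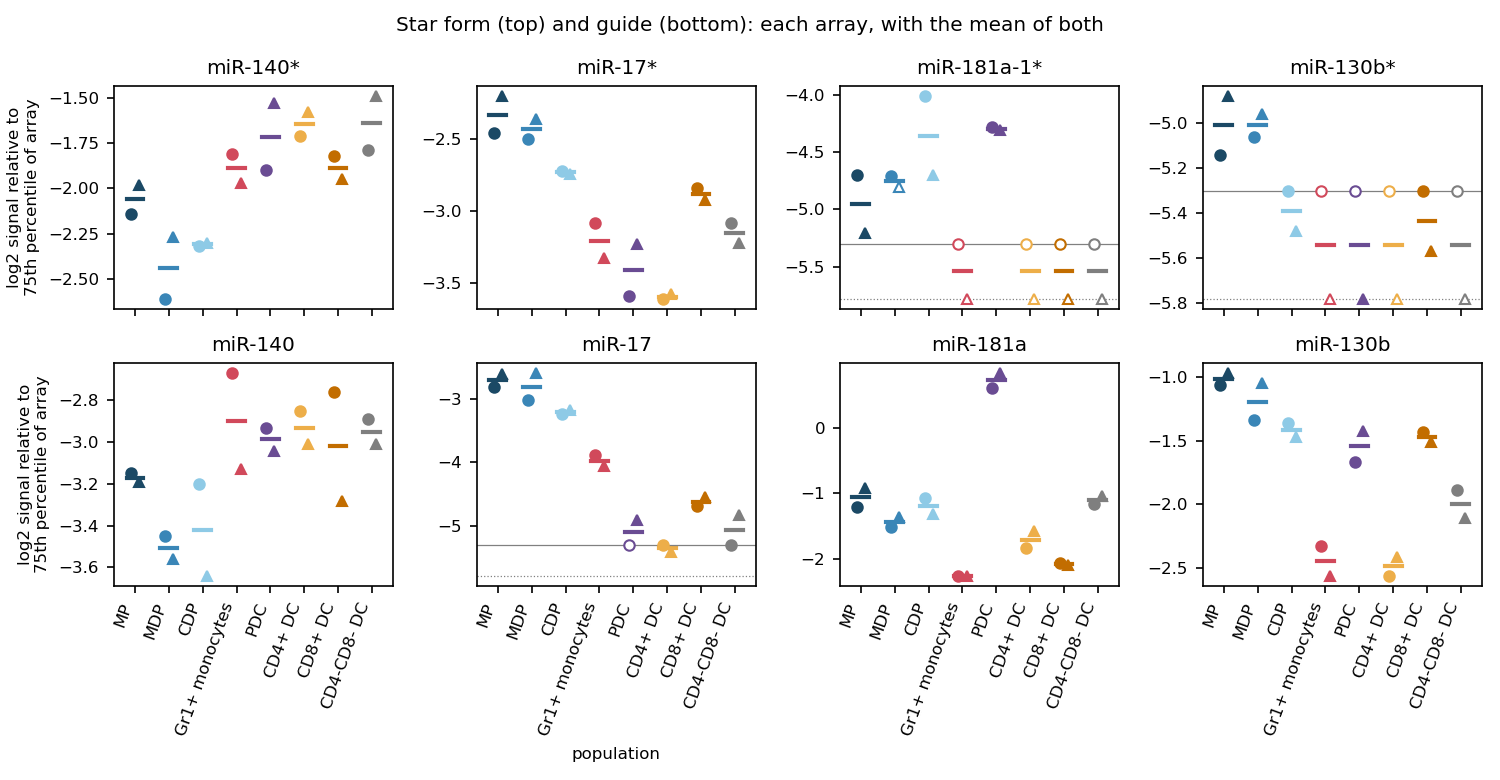
Each panel plots the log2 signal relative to the array's 75th percentile for a star form (top) or its guide (bottom) in the 8 populations, circles for replicate 1 and triangles for replicate 2, filled where above background, with a bar at the mean of both. Grey lines mark the floors of design 1 (solid) and design 2 (dotted), and miR-17* and miR-130b* are highest in the progenitors, as are miR-17 and miR-130b, while PDC stand alone at the top for miR-181a but not for miR-181a-1*.

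Against the 3 progenitors, the 5 differentiated populations were called for 4 of 16 star forms (25%, against 63.4% of all 175 miRNAs). miR-140* was higher (1 star form higher, against 38.9% of all miRNAs), and 3 were lower, against 24.6%. miR-140* rose by 0.51 ± 0.07 (SE) on the log2 scale, or 1.43-fold (adjusted p = 0.000267), with 0.55 on design 1 and 0.47 on design 2. miR-17* fell by 0.75 ± 0.07, or 1.69-fold (adjusted p = 1.68e-05), with -0.68 and -0.82 on the designs. miR-181a-1* fell by 0.60 ± 0.08 (adjusted p = 0.000145, with -0.62 and -0.58), but 4 of the 5 differentiated populations were not above background and at the floor. Its size, SE and p therefore depend on the floor. Since miR-181a-1* was tested through MP, CDP and PDC, its call is a description and no support. The median over the 16 star forms was 0.02, and over all 175 miRNAs 0.14.

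miR-130b*, the 5p strand of a hairpin paired with miR-301b on chromosome 16, was the fourth called. Its scaled signals were 2.84 and 3.38 in MP, 2.99 and 3.21 in MDP, and 2.43 and 2.24 in CDP. They were 1.38 and 1.13 in Gr1+ monocytes, 1.72 and 1.76 in PDC, 0.523 and 0.837 in CD4+ DC, 2.23 and 2.11 in CD8+ DC, and 1.14 and 1.36 in CD4-CD8- DC. CD8+ DC replicate 1 was all but level with CDP replicate 2, the lowest progenitor array, and CD8+ DC was the only differentiated population above background on both arrays. miR-130b* fell by 0.38 ± 0.10 (adjusted p = 0.00926), with -0.13 on design 1, where most of its values were at the floor, and -0.63 on design 2. On both designs Gr1+ monocytes, PDC, CD4+ DC and CD4-CD8- DC were at the floor, so size, SE and p depend on the floor. It was not called by limma's F test over the 8 populations (adjusted p = 0.106). miR-130b* was tested through MP, MDP, CDP and CD8+ DC, so its call is a description and no support. With normexp none of the 4 calls was kept, 1 star form had an unadjusted p under 0.05, and the difference of miR-130b* was 0.08.

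The early progenitor markers miR-126-3p, miR-196b and miR-130a were above background in MP, MDP, CDP and PDC and on no array of Gr1+ monocytes or spleen DC. The hematopoietic miR-142-3p, miR-142-5p and miR-223 were above background in all 8 populations. Of 5 stromal and epithelial markers, 2 were above background on some array of CD4+ DC and of CD4-CD8- DC, 1 each in PDC and CD8+ DC, and 0 in the other 4 populations.

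Gr1+ monocytes were compared with MDP, and 3 of 16 star forms were called (against 37.7% of all). miR-17* fell by 0.78 ± 0.14 (adjusted p = 0.00243) and miR-181a-1* by 0.78 ± 0.16 (0.00343), 2 star forms lower against 17.7% of all miRNAs, and miR-140* rose by 0.55 ± 0.15 (0.0158), 1 higher against 20%. Since miR-181a-1* was not well above background in the monocytes, its level there is a bound, and it was at least 1.25-fold higher in MDP, where 1 of 2 arrays measured it. Both monocyte arrays were at the floor, so its SE and p depend on the floor too. By design the differences were -0.58 and -0.97 for miR-17*, -0.59 and -0.98 for miR-181a-1*, and 0.80 and 0.29 for miR-140*. The call on miR-140* ended without MDP replicate 1 (0.42), without Gr1+ monocytes replicate 1 (0.38), when scaled over all miRNAs (0.52) and in the fit without the block. Without the block the call on miR-181a-1* ended too, and with the brightest probe alone it fell by 0.32 and was not called. With normexp the directions of miR-17* (0.20) and miR-181a-1* (0.58) turned and 0 star forms were called, while 2 had an unadjusted p under 0.05 by limma.

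PDC were compared with CDP, and 2 of 16 star forms were called (against 37.7% of all). miR-17* fell by 0.68 ± 0.14 (adjusted p = 0.00426, 1 lower against 12%), and miR-140* rose by 0.59 ± 0.15 (0.00912, 1 higher against 25.7%). miR-181a-1* differed by 0.06 ± 0.16 (0.916), with -0.27 on design 1 and 0.39 on design 2, while its guide rose by 1.91 ± 0.13. By design the differences were -0.87 and -0.49 for miR-17* and 0.42 and 0.77 for miR-140*. The miR-140* call ended without CDP replicate 2 (0.54) and without PDC replicate 2 (0.46), and when scaled over all miRNAs (0.07), and its direction turned under quantile normalization (-0.12).

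The 3 spleen DC populations together were compared with CDP, and 3 of 16 star forms were called (against 56% of all). miR-181a-1* fell by 1.19 ± 0.13 (adjusted p = 4.45e-05) and miR-17* by 0.48 ± 0.12 (0.00634), 2 lower against 19.4%, and miR-140* rose by 0.59 ± 0.12 (0.00231), 1 higher against 36.6%. miR-181a-1* was at least 1.75-fold higher in CDP, since no spleen DC array measured it. It was tested through MP, CDP and PDC and lay at the floor in the spleen DC. Its difference is therefore a description, and its call is no support. By design the differences were -1.29 and -1.08 for miR-181a-1*, -0.46 and -0.50 for miR-17*, and 0.55 and 0.62 for miR-140*. The miR-17* call ended without CDP replicate 1 (-0.45). miR-140* turned to -0.13 when scaled over all miRNAs and to -0.12 under quantile normalization, settings that lowered the median of all tested miRNAs by 0.32 and 0.22. This comparison and that of PDC share the CDP arrays. The erythroid markers miR-451, miR-144 and miR-486 had a summed level of 0.0269 to 0.0404 times the array's 75th percentile in CDP and 0.171 to 1.29 in the spleen DC, and their part in the result was not tested.

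Within the spleen, CD8+ DC were compared with the other 2 populations, and 3 of 16 star forms were called (against 33.1% of all), all higher (against 25.7%). By limma 0 were lower (against 7.43% of all), and 0 at an unadjusted p under 0.05. miR-138* is the 3p strand of 1 of the 2 loci of miR-138, with its probe site on chr9:122592064-122592075, plus strand, of mm9. Its scaled signals were 3.52 and 3.34 in CD8+ DC and 0.241 and 1.01 in CD4+ DC. Over the other 6 populations they ran from -1.39 to 0.0713, values below 0 lying under the subtracted background. miR-138* was well above background in CD8+ DC only and was at least 1.28-fold higher there (fitted difference 0.68 ± 0.10, with 0.47 on design 1 and 0.88 on design 2). Since CD8+ DC were the one population through which it was tested, this difference is a description, and its call, which ended in the fit without the block, is no support.

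miR-135a*, whose guide was above background on no array, had scaled signals of 3.59 and 4.84 in CD8+ DC, against 0.262 and 1.19 in CD4+ DC and -0.147 and 0.772 in CD4-CD8- DC. The next highest were 1.51 and 1.86 in MP, which did not overlap CD8+ DC, and MP and CD8+ DC were the populations above background on both arrays. It was 0.96 ± 0.19 higher in CD8+ DC (adjusted p = 0.00425), with 0.50 on design 1 and 1.41 on design 2. All 4 arrays of CD4+ DC and CD4-CD8- DC were at the floor, 3 of them not above background, so size, SE and p depend on the floor. Within the spleen miR-135a* was tested through CD8+ DC only, so this difference is a description and its call is no support. miR-17* was 0.49 ± 0.13 higher (0.0149), but this call ended without CD8+ DC replicate 1 (0.42) or 2 (0.55), and its direction turned when scaled over all miRNAs (-0.26) or quantile normalized (-0.04). Under both scalings the calls on miR-138* (0.24 and 0.23) and miR-135a* (0.51 and 0.55) also ended, the median of all tested miRNAs moving by -0.42 and -0.19. Of the 3 erythroid markers, 2 were above background in CD8+ DC, with a summed level of 0.547 to 1.29 there, 0.296 to 0.843 in CD4+ DC and 0.171 to 0.211 in CD4-CD8- DC. The part of erythroid RNA in these differences was not tested.

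miR-29b*, the 5p strand of 1 of 2 loci of miR-29b, was above background on all 8 arrays of PDC and the 3 spleen DC populations and on none of the other 8. Its scaled signals were 1.59 and 1.25 in PDC, 1.47 and 1.66 in CD4+ DC, 2.11 and 2.40 in CD8+ DC, and 1.99 and 1.54 in CD4-CD8- DC. They were 0.636 and 0.661 in MP, 1.03 and 0.430 in MDP, 0.388 and 0.452 in CDP, and 1.28 and 0.814 in Gr1+ monocytes. The sets of 8 arrays overlapped by PDC replicate 2, which lay just below Gr1+ monocytes replicate 1. On the log2 scale 15 of 16 arrays were at the floor and no comparison called miR-29b*, whereas its guide rose by 1.42 ± 0.12 in the differentiated populations (adjusted p = 5.04e-06).

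miR-106b* and miR-18a* were detected mainly in progenitors. miR-106b*, from the cluster inside Mcm7, was above background on both arrays of MDP and CDP and on 1 of MP, and on no differentiated array. Its scaled signals were 0.807 to 1.15 on those 5 arrays, -0.107 on MP replicate 1 and -0.864 to 0.5 on the differentiated arrays. miR-18a* was above background on all 6 progenitor arrays and on 1 array each of PDC, CD4+ DC and CD8+ DC. All 16 arrays of miR-106b* and 15 of miR-18a* were at the floor, so neither could be called in a comparison of levels.

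miR-30e* and miR-30c-1* come from neighbouring hairpins on chromosome 4. miR-30e* was above background on both arrays of PDC, CD4+ DC and CD4-CD8- DC and on 1 array each of MP, Gr1+ monocytes and CD8+ DC, with scaled signals from 1.60 in CDP to 3.29 in PDC. miR-30c-1* was above background on both arrays of MP, Gr1+ monocytes, CD4+ DC and CD8+ DC, but its replicates did not order the populations alike, as in CD4+ DC with 2.99 and 0.878. miR-674* was above background on both arrays of CD4+ DC (2.35 and 3.3) and CD4-CD8- DC (1.95 and 3.09), and on 1 each of CD8+ DC and MP. None of the 3 was called in any comparison, and the highest fold over populations was 1.53.

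miR-302c*, of a cluster known from embryonic stem cells, was above background on 15 arrays, all but CDP replicate 2, with its guide on none. Its replicates differed as widely as its populations, with scaled signals of 3.83 and 0.739 in CD4+ DC and 1.48 and 4.77 in CD4-CD8- DC. miR-191* was above background on 11 arrays and both of CDP, Gr1+ monocytes and CD8+ DC, with scaled signals from 1.14 to 4.42 over the 16 arrays. Neither was called in a comparison.

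miR-483* and miR-877* followed the array design more than the population. miR-483*, of a hairpin in an Igf2 intron, had scaled signals from 1.76 to 4.38 on design 1 and from 6.53 to 19 on design 2, and was above background on 1 design 1 array (CD8+ DC) and all 8 of design 2. miR-877*, of a hairpin in an Abcf1 intron, had scaled signals from 1.36 to 4.03 and from 5.22 to 14.7, with 3 and 8 arrays above background. The designs did not overlap for either star form. After the design block neither was called in any comparison, and their highest r over the populations was with each other (0.99), on points that share the arrays and the scaling.

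How closely a star form followed its guide was described by Pearson's r over the means of the 8 populations. Both strands are read from the same arrays with the same scaling, so no p is given. Over the 10 pairs of tested star and guide with a varying star value, the median r was 0.75, with 4 pairs over 0.9, beside 0.81 for the 7 pairs of -5p and -3p strands on the arrays and 0.09 for all 14878 pairs of tested miRNAs. Without the floor the median was 0.92 over 11 pairs and 0.10 over all.

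miR-30e* (r = 0.95), miR-140* (0.94) and miR-17* (0.91) followed their guides on both designs (0.84 and 0.90, 0.94 and 0.92, 0.87 and 0.92). Spearman's rho was 0.97, 0.74 and 0.93, and without the 2 populations farthest from the guide's median r was 0.92, 0.71 and 0.77. The guide ranked second of 172 tested miRNAs by likeness for miR-30e* and miR-140* and sixth for miR-17*. miR-138* and miR-138 had r = 0.96, which rests on CD8+ DC, since the star was at the floor elsewhere. The guide's scaled signals were 24.7 and 18.9 in CD8+ DC and 4.08 and 4.48 in CD4+ DC, the only other population where miR-138 was above background.

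For 3 star forms at the floor on many arrays, r rose once the floor was taken away. It went from 0.77 to 0.94 for miR-130b*, from 0.49 to 0.92 for miR-18a* and from 0.32 to 0.87 for miR-29b*, and it could be computed for miR-106b* (0.64). Without the floor, signals not above 0 were replaced by a fraction of the array's lowest positive value. This was so on 7 arrays of miR-106b* and 11 of miR-138*, so their r without the floor rests partly on replaced values. It did not rise for miR-138* (0.96 with and 0.93 without the floor) or miR-181a-1* (0.72 and 0.71). miR-30c-1* did not follow miR-30c, with 0.17 and 0.13, and with -0.36 on design 1 and 0.24 on design 2. miR-483* and miR-483 had r = 0.68, but 0.91 on design 1 and 0.12 on design 2.

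**Figure D3:**
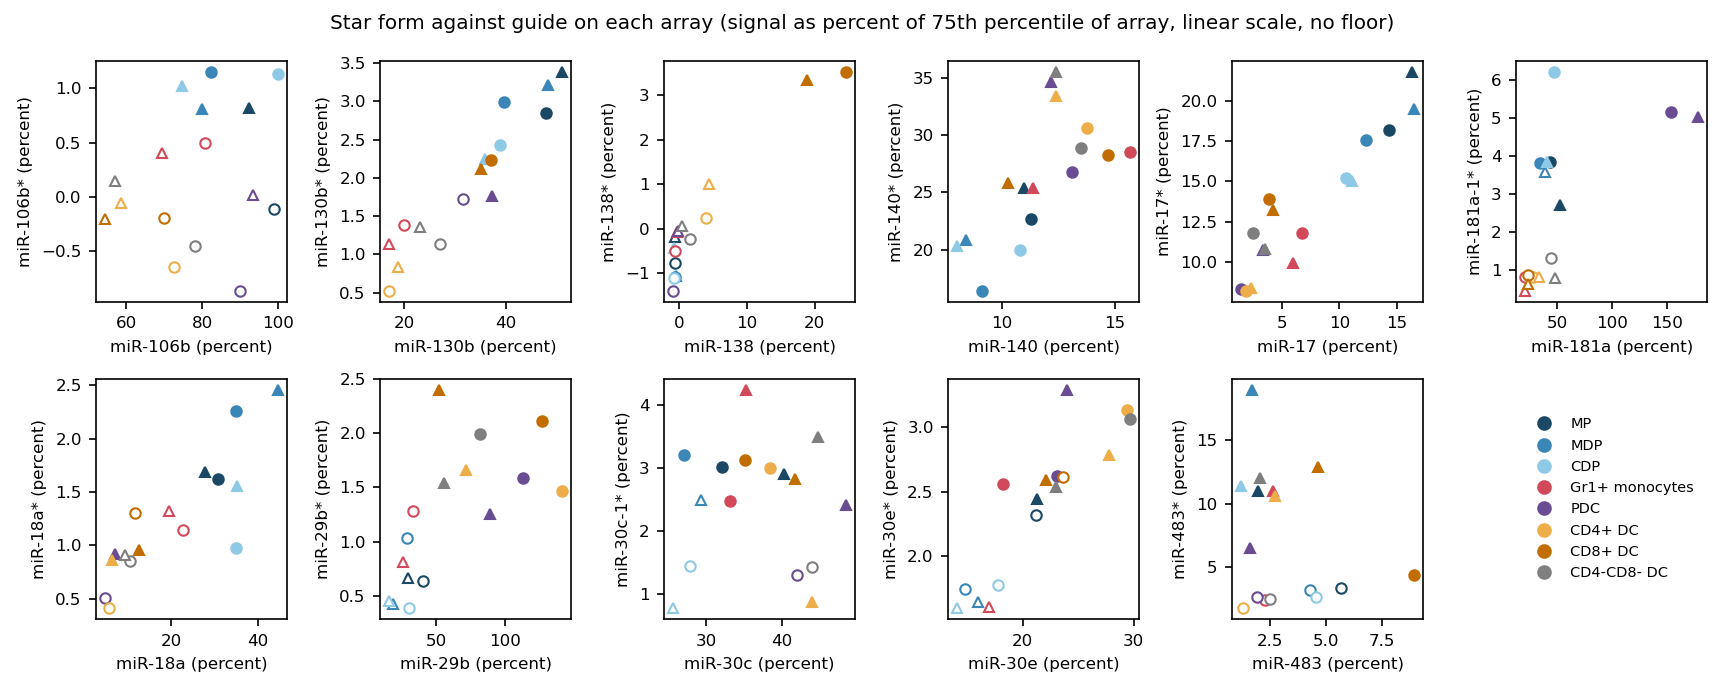
Each panel sets a star form (vertical axis) against its guide (horizontal axis) over the 16 arrays, both as a percent of the array's 75th percentile on a linear scale without a floor, with circles for replicate 1, triangles for replicate 2 and filled marks where the star form was above background. miR-130b*, miR-17* and miR-18a* climb with their guides, miR-30c-1* does not, and miR-181a shows 2 PDC arrays far to the right with no matching height of miR-181a-1*.

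Strands that follow each other in order can still change by different amounts. The difference of log2 star and log2 guide within each array was fitted over the 18 hairpins with both strands tested, 11 of them star pairs, and p-values were adjusted over the 18. Among the 8 populations the difference changed for 7 of 11 star pairs (63.6%, against 72.2% of all 18 pairs), and between differentiated and progenitor populations also for 7 (against 66.7% of all 18). A star form at the floor turns this difference into the guide's own change, as for miR-18a*, miR-29b*, miR-138* and miR-106b*. Using only arrays with both strands above background, 3 of 9 star pairs that could be fitted were called (against 35.7% of all 14 such pairs), namely miR-17* (adjusted p = 9.85e-05), miR-18a* (0.000417) and miR-181a-1* (0.00123).

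miR-17* fell less than miR-17. Relative to the mean of its array design, the difference was between -0.85 and -0.64 on the 6 progenitor arrays, -0.41 and -0.35 in Gr1+ monocytes, and 0.48 to 1.01 on the 8 arrays of PDC and spleen DC. Progenitors, monocytes and DC did not overlap. From progenitors to differentiated populations miR-17 fell by 1.91 ± 0.09 and miR-17* by 0.75 ± 0.07, and the star gained 1.16 ± 0.09 on the guide (adjusted p = 1.03e-06). miR-17 was not above background on PDC replicate 1 and at the floor on 3 arrays, and its probe site also occurs in miR-106a.

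In PDC miR-181a-1* was low relative to miR-181a. Relative to the mean of the array design, the difference of star less guide was -1.34 and -1.09 in PDC, against 0.61 and 0.66 in CDP, 0.36 and 0.60 in MDP, and 0.05 and -0.23 in MP. PDC lay below every other array. In PDC the scaled signals of miR-181a were 153 and 178, against 47.6 and 40.4 in CDP, and miR-181a can come from either of 2 loci while miR-181a-1* comes from 1. With the brightest probe alone, and with normexp, the change of this pair from progenitors to differentiated populations (-0.55 ± 0.08, adjusted p = 0.000142) was -0.08 and -0.12 and was not called.

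The difference of miR-18a* and miR-18a was also called on the arrays that measured both. On 6 progenitor arrays the difference was between -1.21 and -0.85, and on the 3 differentiated arrays with both strands above background it was 1.14 (PDC), 1.31 (CD4+ DC) and 0.29 (CD8+ DC). Those groups did not overlap, but the star was at the floor on all of these arrays but 1. Both the direction and the size are therefore set by miR-18a, which fell by 1.83 ± 0.10, and say nothing of how far miR-18a* changed.

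For miR-140* and its guide no difference was called. miR-140 rose by 0.41 ± 0.07 and miR-140* by 0.51 ± 0.07 from progenitors to differentiated populations, and the difference moved by 0.11 ± 0.07 (adjusted p = 0.163). miR-30e* less miR-30e moved by -0.20 ± 0.10 (0.112) and miR-483* less miR-483 by -0.20 ± 0.24 (0.452). A p over the threshold does not show that the strands changed alike.

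**Figure D4:**
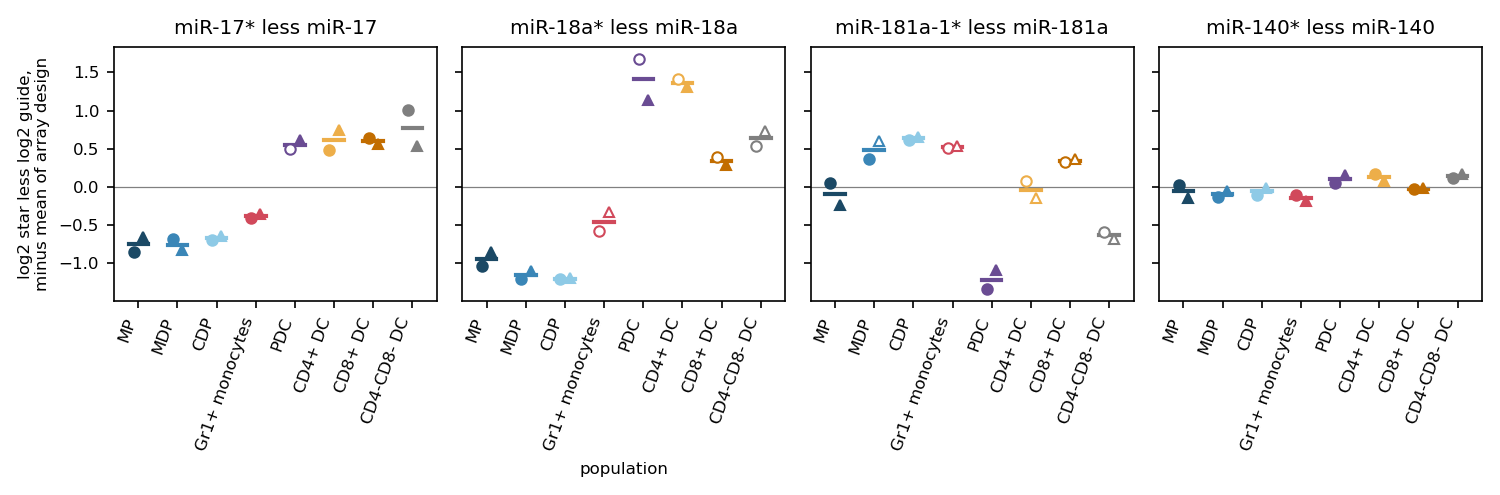
Each panel plots log2 star less log2 guide, minus the mean of the array design, in the 8 populations, with circles for replicate 1, triangles for replicate 2, filled marks where both strands were above background and bars at the mean of both arrays. For miR-17* the 6 progenitor arrays lie between -0.85 and -0.64 and the 8 arrays of PDC and spleen DC between 0.48 and 1.01, PDC lie lowest for miR-181a-1*, and all values of miR-140* stay near 0.

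The tested miRNA most like each star form over the 8 populations was listed with its r. miR-17* was most like miR-19b (0.95), of its own cluster, miR-140* like miR-26b (0.95), miR-181a-1* like miR-181b (0.91), which lies beside it in the genome, and miR-130b* like miR-17* (0.90). miR-30e* was most like miR-29c (0.96), miR-674* like miR-34a (0.98), miR-191* like miR-702 (0.97), miR-302c* like miR-652 (0.93), miR-30c-1* like miR-302c* (0.72) and miR-18a* like miR-191* (0.64). miR-135a*, miR-138* and miR-29b* each reached r = 1 with one another, values that lie at or near the floor in every population but CD8+ DC.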

How the data were processed

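Total RNA of 8 sorted mouse populations, 2 pools each, had been labelled with Cy3 and hybridised to Agilent miRNA arrays, per the labels' protocols. The authors deposited scanner output from Agilent Feature Extraction, version 10.7.3.1 per the file headers and 9.1 per the submitters' processing notes, and the values used are its processed intensity per spot on a linear scale, as deposited. Probe positions are mm9, per the file headers. Outlier spots were left out, spots averaged per probe and probes per miRNA. Arrays were scaled by the 75th percentile of the 88 miRNAs above background on all of them (factors 333 to 876), a floor was set at the median over a design's arrays of the 5th percentile of values above background, and log2 was taken. These log2 values were computed here from the deposited intensities. The test set was the 175 of 604 miRNAs above background on both arrays of some population. Using limma 3.58.1 (R 4.3.3), each was modelled with population means and the array design as a block, with a threshold of 0.05 on Benjamini-Hochberg adjusted p. The fits were tested on simulated data. Other scalings, background corrections, probe summaries, filters and floors were tried, as was leaving out each array.

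The block is the pairing by design: replicate numbers mark the design, and arrays with the same number deviated together from their population means in all 28 pairs of populations (r 0.297 to 0.917, median 0.572). The floors and the signals of some probes, such as those of miR-483*, differ between the designs, which raises these r. They do not show that pools were paired. A dim side of a fold was set, per array, to the higher of its own signal and the lowest signal of a probe well above background. The number of arrays limits the precision. The members, lists and tests were chosen with earlier results of these data known. Every star form above background on both arrays of a population is named with values, those above background on fewer arrays are named, and the tested miRNA most like each is named, except for miR-106b*, at the floor on all 16 arrays, for which no likeness could be computed.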

Additional observations from a re-analysis of the deposited data

Results flagged for a closer look

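miR-181a-1* differed between branches of the tree of populations. Its change from MDP to Gr1+ monocytes less its change from CDP to PDC was -0.84 ± 0.22 on the log2 scale by limma (adjusted p = 0.0186). Its change from CDP to PDC less that from CDP to spleen DC was 1.25 ± 0.13 (adjusted p = 5.57e-05). Both changes of the second difference use the CDP arrays. The monocyte and spleen DC values were all at the floor, so these sizes, their SE and p depend on it. Since miR-181a-1* was tested only through MP, CDP and PDC, both differences are a description and no support.

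Star forms on 1 array design alone entered no comparison. On design 2, miR-1982* and miR-3072* were above background on all 8 arrays, and miR-467a-1* on 1 array (PDC). On the same design miR-3099* was above background on 0 arrays, as was miR-467a* on design 1.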

How the results depend on the processing

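Signal over background limits these results, since 14 of the 16 tested star forms were at the floor on some array. The counts of star forms called in limma's fits were 5 (F test), 4 (differentiated less progenitor), 3 (Gr1+ monocytes less MDP), 2 (PDC less CDP), 3 (spleen DC less CDP) and 3 (CD8+ DC less other spleen DC), and those not named below stayed within 1.5 times. Scaled over all miRNAs they were 3 (F test), 5 (spleen DC) and 1 (CD8+ DC). Quantile normalization gave 3 (F test), 1 (PDC) and 1 (CD8+ DC). Normexp gave 0 in all 6, with 0, 1, 2, 0, 0 and 0 star forms at an unadjusted p under 0.05. The brightest probe gave 9, 9, 5, 4 and 7 in the first 5. Testing only miRNAs above background on all arrays gave 2 (F test), 2 (differentiated) and 1 (CD8+ DC). No floor gave 11 (F test), 10 (differentiated), 6 (PDC) and 9 (spleen DC). Without the replicate block, that is without the pairing by design, they were 3 (F test) and 1 (monocytes), and no other count moved by over 1.5 times. Leaving out 1 array at a time gave 4 to 7, 4 to 8, 2 to 7, 1 to 3, 2 to 6 and 2 to 3. In the fit of all miRNAs, those at the floor on all arrays were left out, a choice made after seeing the data, which kept 209 of 604.

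For star less guide, the 7 pairs among populations became 11 with no filter, 2 with no floor and 3 with both strands above background (6 to 8 on leaving out an array), and the 7 between differentiated and progenitor populations became 4 with the brightest probe and 11 with no filter (7 to 8). The median r of 0.75 became 0.84 scaled over all miRNAs, 0.47 with normexp, 0.82 with the brightest probe, 0.92 with no floor and 0.94 over pairs above background on all arrays (0.71 to 0.85).

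Requiring every probe above background left 3 of 16 star forms, 1 on all arrays, and 2 in MP, 2 in MDP, 3 in CDP, 2 in Gr1+ monocytes, 2 in PDC, 1 in CD4+ DC, 2 in CD8+ DC and 2 in CD4-CD8- DC. Requiring every spot of a probe gave 5 in MP and 6 in CD8+ DC. Design 2 alone gave 5 on all its arrays, and 17 in MP, 9 in Gr1+ monocytes, 16 in PDC, 14 in CD4+ DC, 17 in CD8+ DC and 11 in CD4-CD8- DC. Design 1 alone gave 10 in MDP.

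Directions turned with normexp for miR-130b* between differentiated and progenitor populations (0.08), and for miR-17* (0.20) and miR-181a-1* (0.58) between Gr1+ monocytes and MDP. They turned for miR-140* in PDC less CDP (-0.12, quantile) and spleen DC less CDP (-0.13 scaled over all, -0.12 quantile), and for miR-17* in CD8+ DC (-0.26 and -0.04). miR-483* in spleen DC less CDP was -0.58 scaled over all miRNAs. Star less guide turned for miR-106b* (-0.20 brightest probe, -5.32 no floor), miR-130b* (-0.32) and miR-29b* (0.03), both with no floor. The value of miR-106b* with no floor includes 7 arrays whose signals were not above 0 and were replaced. The r of miR-181a-1* (-0.13) and miR-29b* (-0.20) turned with normexp, and that of miR-30c-1* without CDP replicate 2 (-0.19) or CD4-CD8- DC replicate 2 (-0.06), within a range up to 0.37 on leaving out an array. The cause was not tested.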
